A study of Mus musculus with 6 samples.

Results

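Cyclic AMP is the second messenger through which many receptors act on neurons, and this is an account of the genes that make it, break it down and respond to it in S100a10-expressing cells of the mouse cortex. The genes are those named Pde with a number and at most 1 letter from a to d, Adcy with a number, and all names starting with Prkac or Prkar. They came to 38 genes of 18193 on the array, with 99 of 45101 probe sets. They comprise 22 phosphodiesterase genes, 10 adenylyl cyclase genes and 6 genes for subunits of protein kinase A (PKA).

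All mice carried a bacterial artificial chromosome that uses the S100a10 gene to drive a tagged ribosomal protein (bacTRAP, line ES691), so that ribosome-bound RNA could be immunoprecipitated from the labelled cells. All of them, the vehicle group included, were also constitutive knockouts for p11, the S100a10 protein. One group drank fluoxetine, a selective serotonin reuptake inhibitor, at 0.167 mg/ml in 1% saccharin (FLX), and the other drank 1% saccharin alone (VEH), in each case for 15 to 18 days. Neither the age of the mice nor the number pooled for an array is given in the labels. The strain had been crossed from FVB to C57BL/6 for 3 to 5 generations, and 15 ng of RNA was amplified in 2 cycles for each of 3 arrays per group. The comparison asks how the treatment alters the translated RNA of these cells when p11 is missing. According to the submitters, the transgene is also active in some cells that are not neurons.

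Adenylyl cyclases make cyclic AMP from ATP. Stimulatory G proteins activate them and inhibitory ones hold them back, and serotonin receptors of different classes act through one or the other. Phosphodiesterases end the signal by hydrolysing cyclic AMP, cyclic GMP or both. PKA is held inactive by regulatory subunits, which release the catalytic subunits when cyclic AMP binds. A target of PKA is the transcription factor CREB, which binds the cyclic AMP response element in gene promoters.

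The knocked-out gene, S100a10, had 3 probe sets, and since both groups are labelled as lacking p11 it offers no contrast between them to check the labels. Its brightest probe set, of the x_at type that can match other transcripts, had 2222, 2037 and 349 in FLX and 3111, 2248 and 643 in VEH replicates 1 to 3, and the others lay between 4.98 and 49.4. Each FLX array was below the VEH array of its number, at a mean log2 difference of -0.50 (SE 0.92). With the replicate number as a block the unadjusted limma p was 0.0316 and the adjusted p 0.623. Whether this signal is S100a10 RNA was not tested. Medians over all probe sets were 38.5 to 41.9 in the 6 arrays, and 21158 to 21682 probe sets per array reached a value of 50. In both groups the third replicate stood apart from the others. On the log2 scale replicates 1 and 2 correlated with each other at r = 0.996 to 0.998 across probe sets, the replicate 3 arrays with these at 0.958 to 0.976 and with each other at 0.989. Markers of layer 5 pyramidal neurons, a class that S100a10-expressing cortical pyramidal cells belong to, were present (10 of 10 on the array reached 50 in at least 1 group). Their values summed to between 51767 and 65640 in FLX and between 48074 and 56251 in VEH arrays, of which Pcp4 made up most. In both groups 5 of the 10 were lower in replicate 3 than in the mean of replicates 1 and 2, and 4 were higher. On the log2 scale Rbp4 had -1.95 in FLX and -2.24 in VEH, and Bcl11b 1.75 and 1.28. Leptomeningeal and fibroblast markers (12 of 12) summed, from replicate 1 to replicate 3, to 36439, 63360 and 3050 with FLX and to 61140, 62222 and 5867 with VEH. Oligodendrocyte markers (10 of 10) summed to 26746, 30279 and 73711 in FLX and to 26295, 31184 and 68724 in VEH replicates 1 to 3. Interneuron markers (11 of 12) summed to 19415 to 22607 in FLX and 16298 to 20201 in VEH replicates 1 and 2, and to 45017 and 34598 in replicate 3. Gad1 made up most of each of these sums. Astrocyte markers (11 of 11) summed to 40541 to 57968 over the 6 arrays, of which Aldoc and Gja1 made up most. Of these genes 5 were higher in FLX in all 3 pairs and 0 lower, where 20.2% of all genes tested were higher. With the replicate number as a block 4 had an unadjusted limma p under 0.05, all higher in FLX, where 3.59% of all genes were. Other marker lists had genes with such a p too. With FLX higher they were 3 of 8 tested striatal, 1 of 10 layer 5 and 1 of 11 interneuron markers. With FLX lower they were 3 of 6 tested pericyte and smooth muscle and 4 of 12 leptomeningeal markers, against 4% of all genes. Gfap, with the largest positive log2 difference of the 12213 genes tested, had 370, 372 and 1546 in FLX against 109, 159 and 547 in VEH. Aqp4 had a log2 difference of 1.12, and 0 astrocyte markers were called after adjustment. The part of these cells in the results below was not tested. Endothelial markers (5 of 10; Cdh5, Flt1, Pecam1, Tek and Tie1 did not reach 50) summed to 803 to 1629. In both groups replicate 3 was lower for 12 of 12 leptomeningeal markers and higher for 10 of 11 interneuron markers. The oligodendrocyte sum is mostly Cnp and Mbp, and 6 of the 10 genes were higher in replicate 3 in both groups while Cldn11, Mag and Ugt8a were lower and Mal went both ways. In such samples fewer cells of a type and less RNA per cell cannot be told apart. For Gapdh and Actb, the 3′ probe sets exceeded the 5′ ones, a measure that grows with RNA degradation, by a mean log2 of 2.08 to 2.20 in FLX and 2.18 to 2.33 in VEH arrays, and lower in FLX in each pair of equal number. Its part in the results below was not tested.

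To show the element through which the pathway acts on transcription, RefSeq promoter windows of 300 bases (build GRCm38.p6, 250 before to 50 after each start) were searched on both strands for the palindromic cyclic AMP response element TGACGTCA. Windows were found for 30 of the 38 genes, 67 windows in all. The element was in 2 of these, or 2.99%, against 1.79% of all 32851 windows. Both belong to Prkar1a, the gene for the widely expressed type I regulatory subunit of PKA, and share the same site. It begins 49 bases before the start of one transcript and 39 bases into another, so that it lies within 30 bases at chr11:109650889-109650918 on the + strand, shown here with the element in capitals:
Prkar1a: gcgaggcgcatTGACGTCAgcagccgaacg
The shorter motif TGACG on either strand, which the full element contains, was in 15 of the 67 windows (22.4%, against 20.8% of all windows), in 13 of the 30 genes. A match describes the letters and is not a sign of binding. Prkar1a itself did not pass the test between the treatments, with values given below.

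Of the 38 genes, 32 reached a mean of 50 in at least 1 group and were tested. The 6 others were Adcy4, Adcy10 (the soluble cyclase), Pde3a, Pde6a, Pde6b and Pde11a, whose values lay between 5.27 and 23.8. The phosphodiesterase Pde4c has no probe set among those used here. The tested genes include 2 whose products do not break down cyclic nucleotides in spite of the name: Pde6d, a carrier of prenylated proteins, and Pde12, an enzyme that cleaves short adenylate chains.

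No gene of the pathway differed between FLX and VEH in limma after adjustment. The count was 0 of 32, at an adjusted p of 0.9998 for each, and 0 of 22200 probe sets (0%) were called in the whole table. At an unadjusted p under 0.05 the count was again 0 of 32, against 0.303% of the 12213 genes tested. Values are normalized intensities on a linear scale, which depend on the probes and so are compared between arrays and not between genes. The labels call the arrays biological replicates without saying how many animals each holds, and p-values measure the spread between these arrays. Log2 differences (FLX minus VEH) ran from -0.62 for Pde5a to 0.78 for Pde1c, with standard errors of 0.19 to 1.09 and a median error of 0.34 (3 arrays per group). Their median was 0.15, against 0.05 over all genes tested. Differences were positive in 23 of 32 members (71.9%), against 58.1% of all genes. By replicate number, 8 members (25.0%) were higher in FLX in all 3 pairs, against 20.2% of all genes, and 2 (6.25%) were lower in all 3, against 13.6%. In the fit with the replicate block the median error was 0.18 and 2 of 32 members (6.25%), Pde5a and Adcy7, had an unadjusted p under 0.05, against 7.6% of all genes (3.59% with FLX higher and 4% with FLX lower). After adjustment with the block the count was 0 of 32, at an adjusted p of 0.623 or more, and 0 of 22200 in the table.

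**Figure D1:**
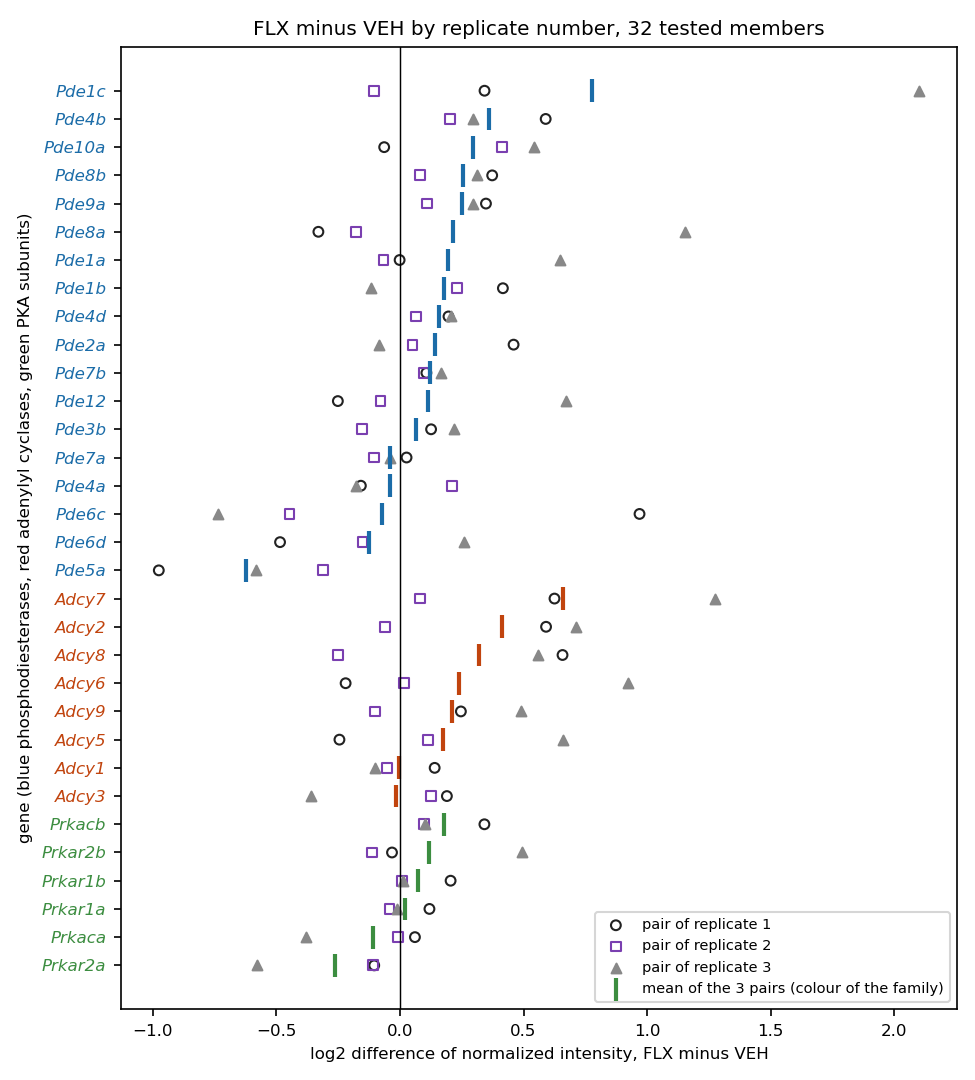
Log2 difference of normalized intensity (FLX minus VEH, x axis) for the 32 tested genes (y axis), with circles, squares and triangles for the pairs of replicate 1, 2 and 3 and a bar for their mean in the colour of the family. Squares lie between -0.45 and 0.41, while triangles reach 2.10 for Pde1c and 1.27 for Adcy7.

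The size of the differences varied with the replicate number, as the plot of differences by pair shows. The median over the 32 members was 0.13 in pair 1, -0.03 in pair 2 and 0.24 in pair 3, where all genes tested had 0.01, -0.01 and 0.15. Positive differences were found in 21, 15 and 21 of the 32 members. The adenylyl cyclases had medians of 0.22, -0.02 and 0.61 in the pairs, and the PKA subunits 0.09, -0.03 and 0.00. Over all members pair 2 was the closest to level, and for the PKA subunits it was pair 3. Without the 2 arrays of replicate 3 the median over members was 0.09 with 21 of 32 positive, and the count called by limma was again 0 of 32. In that fit Pde4b, at 0.40, and Pde5a, at -0.64, had an unadjusted limma p of 0.0443 and 0.0181, and 6.09% of all probe sets lay under 0.05.

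Adenylyl cyclases come first, as the source of the messenger. Of the 8 tested genes, 6 (75%) had a positive difference, against 58.1% of all genes, and the median was 0.23. Adcy7, a cyclase stimulated by G protein beta-gamma subunits and known from immune as well as brain cells, had 359, 374 and 74.2 in FLX and 233, 354 and 30.7 in VEH replicates 1 to 3. The groups overlapped and both replicate 3 arrays were far below the rest, yet each FLX array was above the VEH array of its number. Its log2 difference was 0.66 (SE 1.09), and in the 3 pairs it was 0.63, 0.08 and 1.27. With the replicate block the unadjusted limma p was 0.0254 and the adjusted p 0.623. VEH replicate 3 is below the minimum of 50, the probe set is of the s_at type, and the other probe sets of Adcy7 were not tested. The next brightest, at 11.2 to 84.1, had log2 differences of -0.05, 0.78 and -0.11 in the pairs, so FLX was lower in pairs 1 and 3. Microglia and macrophage markers (9 of 11 reached 50; Itgam and Trem2 did not) summed to 3316, 4574 and 2793 in FLX and 4041, 4625 and 2204 in VEH replicates 1 to 3. They were higher in FLX in pair 3 alone, and their part in the Adcy7 values was not tested.

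Adcy2, a neuronal cyclase of the same beta-gamma stimulated class, had 1819, 1835 and 598 in FLX and 1207, 1911 and 365 in VEH replicates 1 to 3. The groups overlapped, and pair 2 was level while the other pairs were higher in FLX, so that the log2 difference was 0.41 (SE 0.74). Adcy8, a cyclase stimulated by calcium and calmodulin, had 316, 207 and 66.3 in FLX and 200, 246 and 45.0 in VEH replicates 1 to 3. It was higher in FLX in pairs 1 and 3 and lower in pair 2, at a log2 difference of 0.32 (SE 0.85).

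The calcium-inhibited cyclases Adcy5, which dominates in the striatum, and Adcy6 had the same order of pairs. Adcy5 had 2102, 3370 and 1334 in FLX and 2490, 3115 and 844 in VEH replicates 1 to 3, a log2 difference of 0.18 (SE 0.59). Adcy6 had 166, 290 and 82.7 in FLX and 193, 286 and 43.6 in VEH replicates 1 to 3, a log2 difference of 0.24 (SE 0.81). In both genes FLX was lower in pair 1, close to level in pair 2 and higher in pair 3, at 0.66 for Adcy5 and 0.92 for Adcy6. Adcy9, a widely expressed cyclase, had a log2 difference of 0.21 (SE 0.42), and the calcium-stimulated Adcy1 and Adcy3, the former a major cyclase of cortical neurons, had -0.00 (SE 0.24) and -0.02 (SE 0.27). A second probe set of Adcy3 had 0.41 (SE 0.37) and was higher in FLX in all 3 pairs, and a second one of Adcy1 had -0.34 (SE 0.25) and was lower in all 3. All 4 tested probe sets of Adcy9 were positive, at 0.14 to 0.40. Of these, 3 were higher in FLX in all 3 pairs, while the brightest had -0.10 in pair 2.

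Phosphodiesterases specific for cyclic AMP come next. All 7 genes on the array were tested and 5 had a positive difference, with a median of 0.16. The positive share is that of the members as a whole. In FLX 4 of the 7 (Pde4b, Pde4d, Pde7b and Pde8b) were higher in all 3 pairs, against 25.0% of the members and 20.2% of all genes. None of the cyclic AMP-specific genes (0 of 7) had an unadjusted limma p under 0.05, with or without the block. Pde4b, an enzyme inhibited by rolipram, had 3911, 3398 and 6091 in FLX and 2599, 2956 and 4963 in VEH replicates 1 to 3. The groups overlapped because the replicate 3 arrays were the highest in both. In the pairs its log2 difference was 0.59, 0.20 and 0.30, and the mean was 0.36 (SE 0.35). The second tested probe set of Pde4b had 0.28 (SE 0.47) and was higher in all 3 pairs too.

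Pde4d, its close relative, had 2942, 2533 and 3596 in FLX and 2568, 2421 and 3112 in VEH replicates 1 to 3, a log2 difference of 0.16 (SE 0.22). Pde8b, which has a high affinity for cyclic AMP, had 1417, 1216 and 2365 in FLX and 1094, 1149 and 1907 in VEH replicates 1 to 3, a log2 difference of 0.26 (SE 0.36). Pde7b, another rolipram-insensitive enzyme, had 2036, 1823 and 2353 in FLX and 1891, 1705 and 2097 in VEH replicates 1 to 3, a log2 difference of 0.12 (SE 0.20). In each of these genes replicate 3 was the highest array of its group and the groups overlapped. The other 2 tested probe sets of Pde7b had differences of -0.03 and -0.13, and the second one of Pde8b had -0.14.

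Pde8a, the other member of its subfamily, had 439, 399 and 582 in FLX and 552, 451 and 262 in VEH replicates 1 to 3. FLX was lower in pairs 1 and 2 and higher in pair 3, so the log2 difference of 0.22 (SE 0.34) rests on replicate 3, and without both replicate 3 arrays it was -0.25. Pde4a had -0.04 (SE 0.34). Pde7a depended on the probe set: its brightest gave -0.04 (SE 0.21), while the other 5 tested gave 0.03 to 0.68, and 2 of these, at 0.42 and 0.68, had an unadjusted limma p of 0.0455 and 0.0227 with the block.

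**Figure D2:**
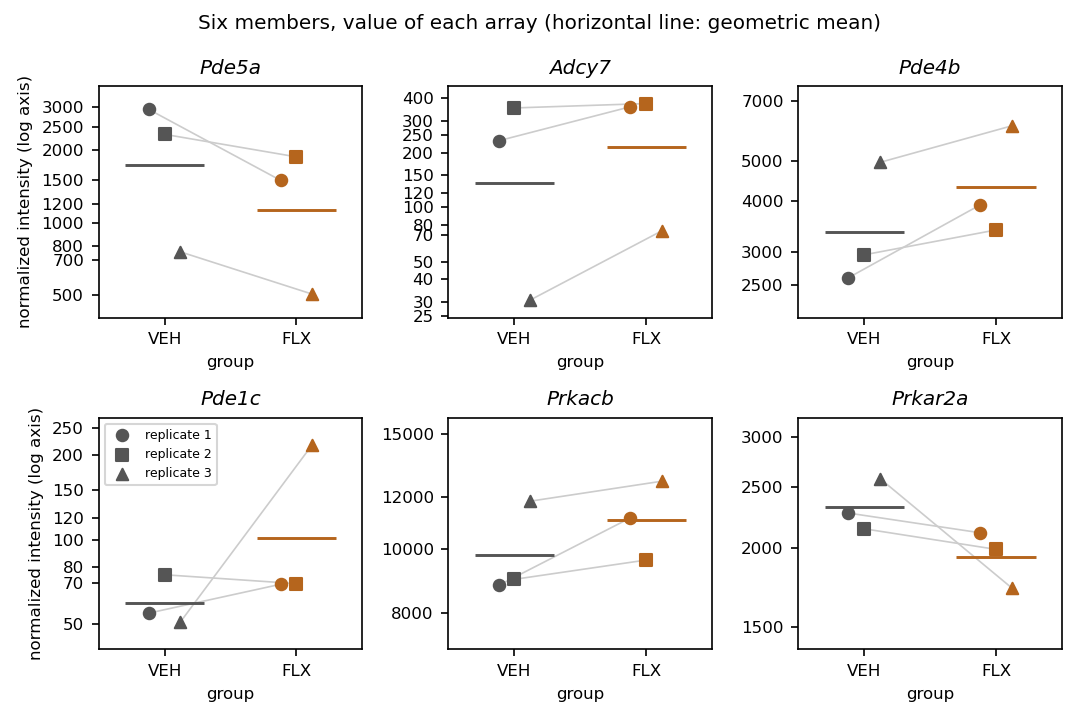
Normalized intensity (log axis) of 6 members in each array, by group, with lines joining arrays of equal replicate number and a horizontal line at the geometric mean of a group. Pde5a, Adcy7, Pde4b and Prkacb shift one way in all 3 pairs although the groups overlap, Prkar2a does so without overlap, and the Pde1c difference is mostly that of FLX replicate 3 at 218.

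Phosphodiesterases that take both cyclic AMP and cyclic GMP had 6 tested genes. All had a positive difference, against 58.1% of all genes, at a median of 0.19. Of the 6, 0 were higher in all 3 pairs, against 20.2% of all genes. Pde1c, a calcium-calmodulin activated enzyme, had the largest difference of all members. Its values were 69.4, 69.8 and 218 in FLX and 54.8, 75.1 and 51.0 in VEH replicates 1 to 3. A single array, FLX replicate 3, stood above all others, and the log2 difference of 0.78 (SE 0.50) was 0.12 without both replicate 3 arrays. The gene lay near the minimum of 50 in the 5 other arrays.

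Pde1a, which is also activated by calcium and calmodulin, had 4721, 4155 and 5738 in FLX and 4725, 4350 and 3660 in VEH replicates 1 to 3. It was level in pairs 1 and 2, and the log2 difference of 0.19 (SE 0.22) came from pair 3 at 0.65. Pde10a, the enzyme best known from striatal projection neurons, had 2508, 2510 and 5624 in FLX and 2622, 1886 and 3860 in VEH replicates 1 to 3, a log2 difference of 0.30 (SE 0.43). It was highest in replicate 3 of both groups. Markers of striatal projection neurons (8 of 9 reached 50; Drd2 did not) summed to 7523, 7886 and 7546 in FLX and 5604, 7929 and 6705 in VEH replicates 1 to 3. The sum was higher in FLX in pairs 1 and 3. In both groups 4 of the 8, Rgs9, Ppp1r1b, Rasd2 and Drd1, were higher in replicate 3 than in the others, as Pde10a was, and 3 were lower. Their part in the Pde10a values was not tested. The other 2 tested probe sets of Pde10a had 0.08 and 0.60. The other genes of this class, Pde1b, Pde2a and Pde3b, had differences of 0.18, 0.14 and 0.06 (SE 0.40, 0.32 and 0.31). A second probe set of Pde2a, an enzyme that cyclic GMP stimulates, had 0.45 (SE 0.26) with no overlap between the groups, and an unadjusted limma p of 0.0366 with the block.

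Enzymes specific for cyclic GMP, with 3 tested genes, include the member with the most negative difference. Pde5a, the target of sildenafil and an enzyme typical of vascular smooth muscle, had 1497, 1873 and 506 in FLX and 2943, 2321 and 758 in VEH replicates 1 to 3. Each FLX array was below the VEH array of its number, at -0.98, -0.31 and -0.58, but the groups overlapped because both replicate 3 arrays were low. The mean log2 difference was -0.62 (SE 0.70), and with the replicate block the unadjusted limma p was 0.0108 and the adjusted p 0.623. Its brightest probe set is of the x_at type, which can match other transcripts. The other 2 tested probe sets had -0.40 (SE 0.92) and -0.60 (SE 0.41), each higher in FLX in 1 of 3 pairs.

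As a sum, pericyte and smooth muscle markers were lower in FLX alongside Pde5a in pairs 1 and 2. Of 10 such genes 6 reached 50, and Abcc9, Anpep, Kcnj8 and Myh11, the last a defining smooth muscle gene, did not. The list summed to 4856, 5798 and 2492 in FLX and 9402, 6737 and 2445 in VEH replicates 1 to 3, so that the sum was nearly level in pair 3. The largest part of it is Rgs5 (1427 in FLX and 1220 in VEH replicate 3), and Mylk was also higher in FLX there, while Acta2 (363 and 486), Tagln (82.8 and 126), Pdgfrb (91.0 and 195) and Cspg4 (126 and 156) were lower in FLX, as Pde5a was. Rgs5 and Cspg4 were also higher in FLX in pair 1, and Pdgfrb and Cspg4 in pair 2. The median of the 6 genes was -0.81, -0.20 and -0.37 in the pairs. Leptomeningeal markers, given above, were lower in FLX in pairs 1 and 3 and slightly higher in pair 2. The part of these cells in the Pde5a values was not tested.

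Pde9a, which has a high affinity for cyclic GMP, had 126, 108 and 386 in FLX and 98.9, 100.5 and 314 in VEH replicates 1 to 3. It was higher in FLX in all 3 pairs, at a log2 difference of 0.25 (SE 0.67), and far higher in replicate 3 of both groups than in the others. Pde6c, a subunit of the cone photoreceptor enzyme, lay between 45.1 and 88.2 with a difference of -0.07 (SE 0.35). Of the 2 genes that do not act on cyclic nucleotides, Pde6d had 2679, 2807 and 1541 in FLX and 3750, 3118 and 1288 in VEH replicates 1 to 3, a log2 difference of -0.13 (SE 0.48). It was lower in FLX in pairs 1 and 2 and higher in pair 3. Pde12 had 0.11 (SE 0.31).

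PKA subunits had the smallest median difference of the families, at 0.05 over 6 genes, with standard errors of 0.19 to 0.26. Of the catalytic subunits, Prkaca had 20234, 18072 and 22318 in FLX and 19401, 18176 and 29065 in VEH replicates 1 to 3, a log2 difference of -0.11 (SE 0.25). VEH replicate 3 alone was high. Prkacb, the catalytic subunit with neuronal splice forms, had 11167, 9632 and 12698 in FLX and 8812, 9002 and 11838 in VEH replicates 1 to 3. It was higher in FLX in all 3 pairs with overlapping groups, at 0.18 (SE 0.22), while its second tested probe set was lower in all 3, at -0.15 (SE 0.64).

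Of the regulatory subunits, Prkar2a, a type II subunit that is tethered by anchoring proteins, had 2117, 1992 and 1730 in FLX and 2275, 2148 and 2581 in VEH replicates 1 to 3. It was the 1 member of 32 (3.12%) whose groups did not overlap with FLX lower, where 1.65% of all genes did so, and 0 of 32 had FLX higher without overlap, against 2.61%. The log2 difference was -0.26 (SE 0.19), with -0.10, -0.11 and -0.58 in the pairs, and the second tested probe set had -0.14 (SE 0.19) with overlapping groups. Prkar2b, the type II subunit prominent in the brain, had 7680, 7029 and 11184 in FLX and 7853, 7594 and 7937 in VEH replicates 1 to 3. Its difference of 0.12 (SE 0.24) lay in FLX replicate 3.

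The type I subunits were close to level. Prkar1a had 4467, 4364 and 6115 in FLX and 4112, 4495 and 6162 in VEH replicates 1 to 3, a log2 difference of 0.02 (SE 0.26). Prkar1b, the neural type I subunit, had 48072, 47021 and 57640.5 in FLX and 41705, 46780 and 57131 in VEH replicates 1 to 3, a log2 difference of 0.08 (SE 0.21). All 5 probe sets of Prkar1b were positive, at 0.08 to 0.33, and all 3 of Prkar1a, at 0.02 to 0.17.

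**Figure D3:**
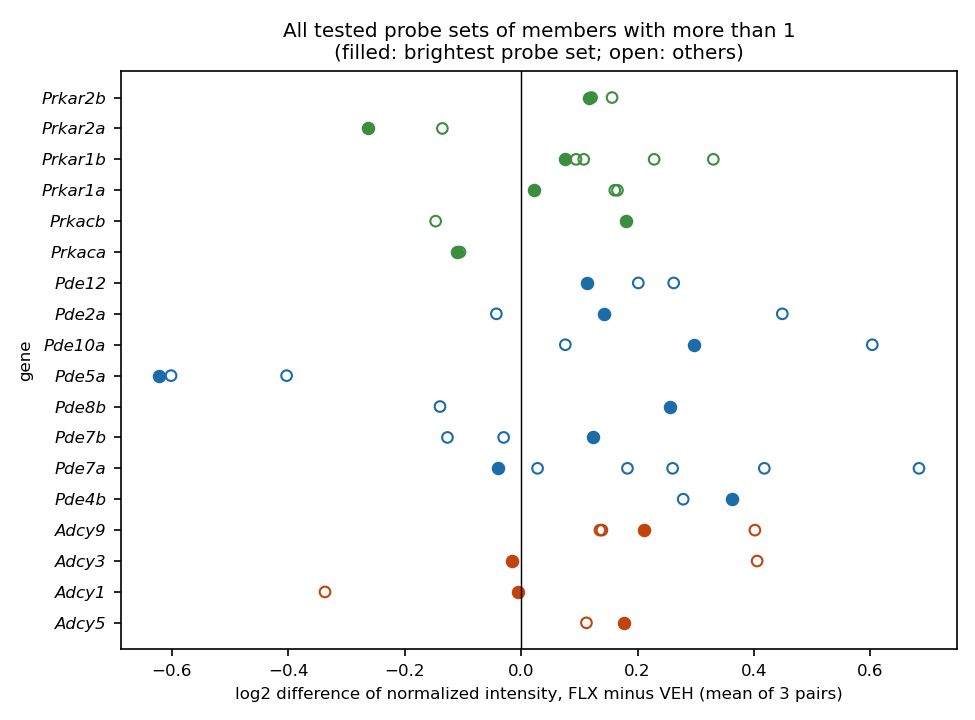
Log2 difference of normalized intensity (FLX minus VEH, x axis, mean of 3 pairs) for every tested probe set of the 18 genes with more than 1 (y axis), filled for the brightest and open for the others. The points of 12 genes all lie on the side of 0 of the brightest probe set, and for Pde7a 5 of 6 lie on the other side.

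Probe sets of 1 gene gave a check on these values. Of 66 tested probe sets 0 had an unadjusted limma p under 0.05, and 6 did with the block, where 7.95% of all probe sets did, in Adcy3, Adcy7, Pde2a, Pde5a and Pde7a, the last with 2 of them. The adjusted p with the block was 0.623 for each. Among the 18 genes with at least 2 tested probe sets, all were of one sign in 12 genes, and at least 1 was of the sign opposite to the brightest in 6 (Adcy3, Pde2a, Pde7a, Pde7b, Pde8b and Prkacb).

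The larger differences among the arrays lay between replicate 3 and the others. All 8 tested adenylyl cyclases were lower in replicate 3 than in the mean of replicates 1 and 2 in both groups, with a median log2 difference of -1.20 in FLX and -1.89 in VEH. Of the PKA subunits 5 of 6 were higher in replicate 3 in both groups (medians 0.28 and 0.39), as were 6 of 7 phosphodiesterases specific for cyclic AMP (medians 0.48 and 0.32). Over all genes tested 41.4% were lower in replicate 3 in both groups and 40.5% higher. Replicate 3 differed over 2-fold in the same direction in both groups for 6 of 32 members (18.8%), against 21.7% of all genes. These were Adcy7 (-2.30 in FLX and -3.22 in VEH), Adcy8 (-1.95 and -2.30), Adcy2 (-1.61 and -2.06), Adcy6 (-1.41 and -2.43), Pde5a (-1.73 and -1.79) and, in the other direction, Pde9a (1.72 and 1.66). These differences are descriptions, since the standing apart of replicate 3 was known before. The leptomeningeal, oligodendrocyte and interneuron sums given above move with the same arrays. Astrocyte markers went both ways, with 5 of 11 lower and 4 higher in replicate 3 in both groups. Gjb6 had -3.71 in FLX and -3.99 in VEH, and Gfap 2.06 in both. Of 9 tested microglia and macrophage markers 7 were lower in both groups and 1 was higher. The part of all these cells in the differences was not tested.

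**Figure D4:**
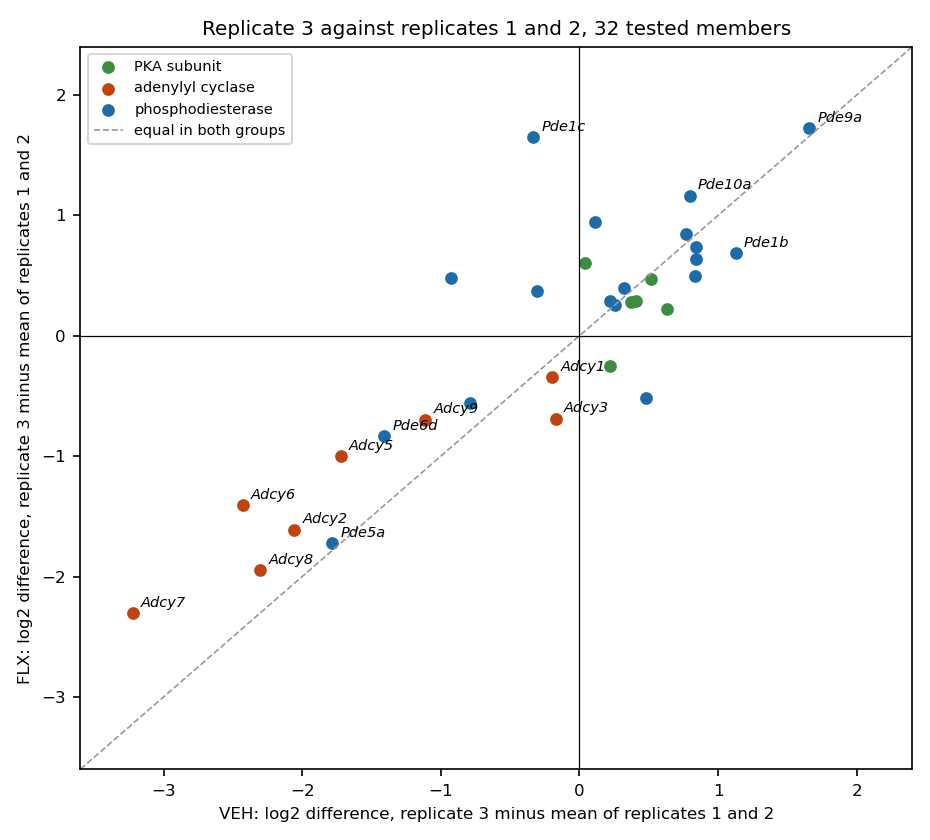
Log2 difference of normalized intensity between replicate 3 and the mean of replicates 1 and 2, in VEH (x axis) and FLX (y axis), for the 32 tested genes coloured by family; the dashed line marks equal values. All 8 adenylyl cyclases lie below 0 on both axes, all but Adcy1 and Adcy3 nearer to 0 in FLX, and the PKA subunits lie between -0.25 and 0.63.

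Genes that act before and after these enzymes did not pass the test either. Over all genes tested 20.2% were higher in all 3 pairs and 13.6% lower, and 2.61% were higher without overlap of the groups and 1.65% lower. In each of the lists that follow 0 genes were called in either direction by limma, and 0 had an unadjusted p under 0.05. Over all genes tested 0.303% had such a p, so a count of 0 says little about lists this short. Of 7 G protein alpha subunits that act on adenylyl cyclase (median log2 difference 0.06), Gnai1 and Gnai2, both inhibitory, had 0.18 (SE 0.19) and -0.19 (SE 0.43). Of 3 PKA inhibitor peptides (median 0.21), Pkig had -0.41 (SE 0.28) and Pkia 0.21 (SE 0.20). Of 16 A-kinase anchoring proteins, which place PKA at its targets, 13 were tested (median 0.15), 5 were higher in FLX in all 3 pairs and 1 was lower. Akap9 had 0.37 (SE 0.22) and Akap11 had 0.40 (SE 0.25). Rapgef3, which encodes the PKA-independent cyclic AMP sensor Epac1, was the 1 tested gene among 4 other effectors on the array and had lower values in all FLX arrays than in any VEH array, at -0.41 (SE 0.27).

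CREB, its coactivators and phosphatase inhibitors controlled by PKA had a median of -0.03 over 11 genes. Ppp1r1a, a phosphatase inhibitor that PKA switches on, had 3381, 3809 and 1198 in FLX and 5135, 4323 and 3358 in VEH replicates 1 to 3, a log2 difference of -0.76 (SE 0.48). It was lower in all 3 pairs, most in replicate 3. Arpp21, a substrate of PKA, had higher values in all FLX arrays than in any VEH array, at 0.20 (SE 0.18), as did Arpp19, at 0.15 (SE 0.18). On the cyclic GMP side 9 of 13 genes were tested, with a median of 0.20 and 4 higher in FLX in all 3 pairs. Gucy1b1, the beta subunit of the guanylyl cyclase that senses nitric oxide, had 0.39 (SE 0.40) and the nitric oxide synthase gene Nos1 had 0.67 (SE 0.79). With the block 3 of the 46 tested genes of these lists had an unadjusted limma p under 0.05, Nos1 (0.00797), Ppp1r1a (0.0186) and Npr3 (0.0266), where 7.6% of all genes did, and 0 were called after adjustment. Of the relatives left out by the naming rule, Prkx, a kinase close to PKA, had -0.07 (SE 0.41) and Pde4dip, an anchor for phosphodiesterase 4, had 0.13 (SE 0.99).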

How the data were processed

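The table the authors deposited gives linear intensities of probe sets on single-colour Affymetrix arrays. Per the submitters' processing notes GCRMA was the normalization, with no version or settings stated in the labels. The table holds 1 column per array and 45101 probe sets, of which 64 controls stayed out. Genes were named from the platform annotation, and only from probe sets with 1 symbol. For each gene the probe set with the highest mean over the 6 arrays was used. A probe set entered the test when FLX or VEH averaged 50 or more, a value the submitters give for filtering, which left 22200. FLX was compared with VEH in limma 3.58.1 (R 4.3.3) on log2 values without pseudocount. The model had a treatment term alone and default moderation. Tests were two-sided, and p-values were adjusted by Benjamini-Hochberg across the 22200. The fit was tested on simulated data in which all arrays varied independently. That setting lacks the shared variation of arrays of equal replicate number described below. The submitters advise keeping to a published list of probe sets because of the non-neuronal cells, and that list was not used here.

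Both groups use the replicate numbers 1 to 3, whose meaning the labels leave unsaid. Deviations from a group's mean correlated at r = 0.70, 0.84 and 0.87 between arrays of equal number, so a blocked fit on that number was also made. Arrays of unequal number among replicates 1 and 2 correlated at 0.76 and 0.64, so the pairing rests mainly on replicate 3.

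Alternatives were the block, leaving out arrays, other minimums (none or 100), a pseudocount of 16, other scalings, moderation with trend, and other choices of probe set. Lists of related genes and of cell type markers were written from general knowledge, and the members and lists were chosen with earlier results of these data known. Per-array values are given for the 12 members with the smallest unadjusted p, all PKA subunits and the 6 other members with the largest difference between replicate 3 and the rest. Of each related list the 2 genes with the smallest unadjusted p are named. Npr3, Arpp19, Gfap, other single markers and single probe sets were named after their values were seen. Figures were drawn with matplotlib 3.10.9.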

Additional observations from a re-analysis of the deposited data

How the results depend on the processing

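Under each of the 18 alternatives to the fit, 0 members and 0 probe sets were called by limma. The median over members stayed positive, between 0.04 without FLX replicate 3 and 0.21 without replicate 2. With the replicate block the differences are unchanged by construction, 0 were called and 2 of 32 members had an unadjusted p under 0.05, where 1764 probe sets did, against 83 without it. That count was 364 with no filter, and ran from 6 without replicate 1 to 1339 without replicate 3. With array medians set equal the median of all probe sets was 0.07 in place of 0.04, Adcy3 turned to 0.0070 and Adcy1 to 0.018, and with quantile normalization Prkar1a turned to -0.012. Averaging a gene's probe sets, Pde7b turned to -0.011, Pde7a to 0.26 and Adcy3 to 0.19, and without the x_at and s_at types Pde7a turned to 0.18 and Adcy3 to 0.41. Leaving out 1 array, or both arrays of a number, turned the sign of 25 of 32 members at least once and of 7 never (Pde1c, Prkar2a, Pde4b, Pde5a, Prkacb, Pde4d and Pde7b). Adjusted p-values stayed above the threshold throughout. Among the 25, the log2 difference ran for Pde1a from -0.034 to 0.32, Pde8b from -0.028 to 0.51, Pde10a from -0.091 to 0.56, Pde8a from -0.25 to 0.49, Adcy7 from -0.41 to 1.43, Adcy2 from -0.27 to 0.95, Adcy9 from -0.16 to 0.53, Prkar2b from -0.085 to 0.25 and Pde1b from -0.053 to 0.55. It ran for Pde2a from -0.071 to 0.42, Prkaca from -0.24 to 0.10, Adcy8 from -0.45 to 0.97, Pde9a from -0.32 to 0.80, Pde12 from -0.20 to 0.30, Prkar1b from -0.028 to 0.20, Adcy5 from -0.40 to 0.54 and Adcy6 from -0.57 to 0.79. Among the others it ran for Pde6d from -0.60 to 0.18, Pde3b from -0.20 to 0.25, Pde6c from -0.59 to 0.26, Pde7a from -0.12 to 0.066, Pde4a from -0.27 to 0.24, Prkar1a from -0.13 to 0.20, Adcy3 from -0.18 to 0.21 and Adcy1 from -0.14 to 0.15. These fits have no block, so leaving out 1 array also carries the distance of its replicate number from the others into the difference. Adcy7 had -0.41 without VEH replicate 3 and 1.43 without FLX replicate 3. Signs also turned without both arrays of a number, as for Pde1a (-0.034) and Pde8a (-0.25) without replicate 3. Other causes of these turns were not tested. With 3 arrays per group the number of arrays limits the precision, and members near an intensity of 50 (Pde1c, Pde6c, and Adcy7, Adcy6 and Adcy8 in replicate 3) are close to the minimum used for testing.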
